A study of Mus musculus with 2 samples.

Results

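Of the 6994 autosomal boundaries called in olfactory sensory neurons of the mouse, 782 (11.2%, 95% Wilson interval 10.5 to 11.9) lay inside a long protein-coding gene and away from any protein-coding transcription start site (TSS). A boundary belonged to the set when its midpoint fell in a protein-coding gene of 200 kb or longer and no protein-coding TSS lay in its 5 kb interval widened by 10 kb on each side. The whole list, sex chromosomes included, held 7367 boundaries. A further 75 autosomal boundaries had their midpoint in a long gene and were left out because a TSS lay in that window. There were 953 such long genes among 20807 autosomal protein-coding genes, and 560 of them were counted as hosts when each boundary was given to the longest gene around it. The rule used position alone, so strength, class and sequence were not part of it.

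The map came from in situ Hi-C, which ligates DNA ends that are close together in fixed nuclei. There was 1 group of 2 biological replicates, of 170000 and 220000 cells, taken from the olfactory epithelium of adult MOR28-GFP mice of the strain 129P2/OlaHsd and of mixed sex, without treatment. Cells were sorted by fluorescence for mature neurons expressing Olfr1507, also named MOR28, then fixed in 1% formaldehyde and cut with DpnII. The authors merged the replicates before boundaries were called, so there is 1 list, no replicate error, and an unknown depth behind each boundary.

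Chromatin boundaries part neighbouring domains of frequent contact, and many of them lie at promoters or at sites bound by CTCF, a zinc-finger protein that stops cohesin as it extrudes a DNA loop. CTCF does so in an orientation-dependent way, so the strand of its motif matters. Very long genes are unusual in vertebrate genomes, and many of them encode neuronal adhesion molecules, synaptic scaffolds and ion channels, with most of their length in introns. A boundary inside such a gene can part stretches of the gene body, or, near its ends or where the model encloses other genes, the gene from a neighbour.

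Sequences are shown for the 8 strongest boundaries of the set with a match to the CTCF core motif, to show the letters and strand of the matches counted further on. Each is the match nearest the midpoint with 24 bases on either side, 60 bases in all, read 5′ to 3′ on the strand of the match, with the 12 bases of the match in capitals. They were read from the RefSeq GRCm38 sequence, which is of another strain than these mice. In order, they lie at chr4:128579326-128579385 (plus strand), chr5:117505316-117505375 (plus), chr7:132216449-132216508 (minus), chr4:32572278-32572337 (minus), chr2:135330375-135330434 (minus), chr17:70683979-70684038 (minus), chr5:4948443-4948502 (minus) and chr4:19499679-19499738 (minus).
Csmd2: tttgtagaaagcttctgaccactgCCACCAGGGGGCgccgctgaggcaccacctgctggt
Ksr2: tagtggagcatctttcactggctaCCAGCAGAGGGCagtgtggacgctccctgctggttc
Fgfr2: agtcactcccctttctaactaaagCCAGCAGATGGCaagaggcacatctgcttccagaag
Bach2: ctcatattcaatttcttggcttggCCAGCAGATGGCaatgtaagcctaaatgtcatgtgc
Plcb1: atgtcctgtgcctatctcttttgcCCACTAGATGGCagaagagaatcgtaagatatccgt
Dlgap1: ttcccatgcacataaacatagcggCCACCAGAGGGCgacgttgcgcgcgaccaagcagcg
Cdk14: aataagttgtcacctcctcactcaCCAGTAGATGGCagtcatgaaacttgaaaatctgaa
Cngb3: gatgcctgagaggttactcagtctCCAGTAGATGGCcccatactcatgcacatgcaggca
Of these 8 matches, 7 lay in an intron of the host gene and 1, that of Csmd2, lay past its 3′ end, 11.9 kb from the boundary midpoint. Read along the motif as written, 6 pointed away from the boundary midpoint and 2, those of Ksr2 and Dlgap1, pointed toward it. The match in the Fgfr2 gene model was the only 1 of the 8 in repeat-masked sequence. A match is a description of these letters, and binding was not measured.

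Boundaries were sparser inside long genes than elsewhere. Counted over the 388 Mb at which a midpoint would meet the rule (16.2% of usable autosomal sequence), they came to 2.02 per Mb (exact Poisson interval 1.88 to 2.16). Shorter protein-coding genes, away from any TSS, held 2.61 per Mb (2.45 to 2.78), and sequence outside protein-coding genes and away from any TSS held 2.59 per Mb (2.50 to 2.68). Windows with a TSS held 5.03 per Mb (4.82 to 5.25). The interval for long genes did not overlap any of the other 3. All intervals given here are at 95% and cover counting error only, since neighbouring boundaries and genes are not independent replicates.

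They were also weaker. The strength deposited with each boundary is the authors' own score, on a scale that no source read here states, and it was used only to compare boundaries within the list. The authors' class of strong begins at a strength of 0.5. In the set 373 boundaries were strong and 409 weak, so 47.7% were strong (44.2 to 51.2), beside 56.0% of all autosomal boundaries. The 6212 other autosomal boundaries were strong in 57.0%, a difference of -9.34 percentage points (Newcombe interval -13.0 to -5.62). Strength in long genes ran from 0.201 to 3.004 with a median of 0.464 and a mean of 0.620 ± 0.424 (SD, n = 782 boundaries). Elsewhere the median was 0.592 and the mean 0.753 ± 0.533, a difference of means of -0.133 (SE 0.0166, interval -0.165 to -0.100).

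The gap was widest against boundaries at a TSS, of which 64.8% were strong, a difference of -17.1 points (-21.1 to -13.0). Boundaries inside shorter genes were strong in 63.3%, a difference of -15.6 points (-20.1 to -10.9), and their mean strength was 0.755 (difference -0.134, SE 0.0215). Boundaries outside protein-coding genes and away from a TSS came closest. Their strong share was 49.98%, a difference of -2.29 points whose interval, -6.18 to 1.63, spans 0. Their mean strength, 0.710, was still higher, with a difference of -0.0892 (-0.124 to -0.0539). The curves of strength by position show where the sets part.

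**Figure D1:**
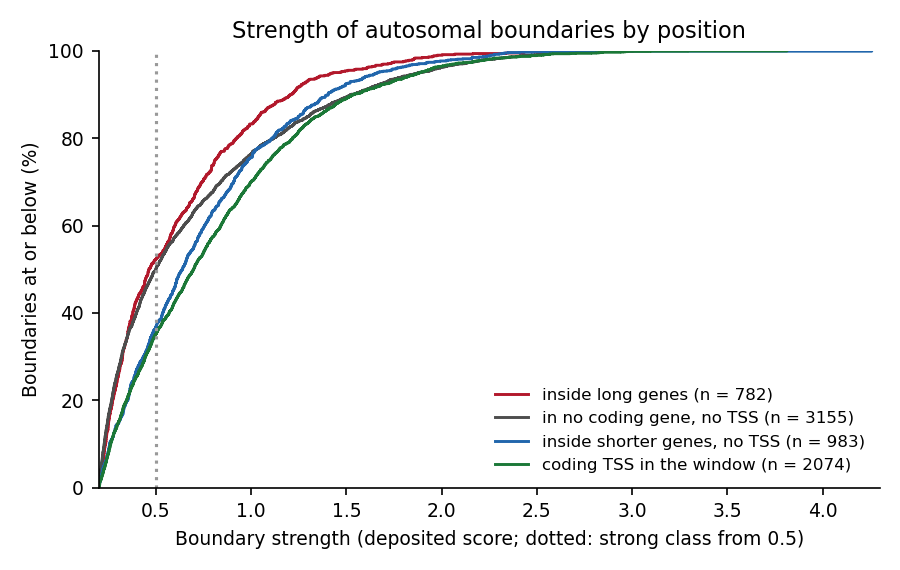
Cumulative share of autosomal boundaries (percent, vertical axis) at or below each deposited strength (horizontal axis), for boundaries inside long genes, inside shorter genes, outside protein-coding genes and with a TSS; the dotted line marks the strong class, from 0.5. The curve for long genes is the highest of the 4 at 0.5, with a median of 0.464 against 0.4999 outside protein-coding genes, 0.640 in shorter genes and 0.698 at a TSS.

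Of the 100 strongest autosomal boundaries of the map, 5 lay in long genes, while the set made up 11.2% of autosomal boundaries. No interval was set on this small count, so it is not read as a lower share. In the set 8 boundaries passed a strength of 2, a count with no share over all boundaries beside it. The strongest boundary of the set, in Dlg2, ranked 6th among all autosomal boundaries. Dlg2 encodes PSD-93, a scaffold of the postsynaptic density. Its strongest boundary lay at chr7:92085001-92090000, 1611 kb downstream of the TSS and at a relative position of 0.817 along the gene, and overlapped an annotated exon. The nearest CTCF match was 108 kb away and the nearest annotated transcript start of Dlg2 25.1 kb away. A provisional transcript model of undetermined coding status, 4931412I15Rik, had its start in the window.

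Dlg2, at chr7:90476672-92449247 on the plus strand, spans 1973 kb and held 6 boundaries, of which 2 were strong. From the TSS onward, the first lay at 40.8 kb with a strength of 1.09. Then came 3 weak boundaries at 396, 791 and 961 kb, with strengths of 0.325, 0.454 and 0.233. The boundary of strength 3.004 followed after a stretch of 650 kb, and the last, at 1951 kb, had a strength of 0.226. That last boundary lay 0.169 kb from an annotated start of another Dlg2 transcript. None of the 6 had a CTCF match in its window, and the nearest matches lay 19.9 to 191 kb from the midpoints.

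The 10 strongest boundaries of the set also included that of Lrrc7 (strength 2.43, relative position 0.949), which encodes the postsynaptic protein densin. Others lay in the gene model Gm20388 (2.42, 0.365), the cilium gene Spag17 (2.34, 0.900), the Rac exchange factor gene Dock4 (2.17, 0.964) and the catenin gene Ctnna3 (2.07, 0.0619). Cadps2 (2.00, 0.610), which acts in the release of dense-core vesicles, Ccdc7a (1.98, 0.915) and Csmd2 (1.96, 1.00), which encodes a large membrane protein, were among them too. Of these 10, 7 lay in the last 20% of their gene, 6 overlapped an exon and 1, in Csmd2, had a CTCF match in its window. None had an annotated protein-coding transcript start there, and 3 had the start of a gene not annotated as protein-coding. Over the whole set, 216 of 782 lay in the last 20%, 32.5% overlapped an exon and 25.4% had a match. Those kinds of start lay in the window of 10.4% and 15.1%. Of the 10 strongest other autosomal boundaries, 5 overlapped an exon, 1 had a match and 5 had a start not annotated as protein-coding. In Lrrc7 no match lay within 389 kb of the midpoint on either side.

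The genes with most boundaries were among the longest. Gm20388 had 12, of which 7 were strong, and Fgfr2, which encodes a fibroblast growth factor receptor, had 6, of which 5 were strong. Both models need care: in GENCODE they span 4435 and 2961 kb and enclose 72 and 29 other protein-coding TSSs. The RefSeq model of Fgfr2 spans 104 kb, and Gm20388 was not matched by symbol there. Lsamp and Pde4d, like Dlg2, had 6 boundaries each. In Lsamp, a neuronal adhesion molecule gene at chr16:39984361-42181679, the 3 strong boundaries had strengths of 0.778, 1.18 and 1.43, the last at a relative position of 0.994. Pde4d, which encodes a cyclic AMP phosphodiesterase, held 4 strong boundaries, with 1.73 and 1.42 the highest.

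Numbers and strengths varied among the other longest genes. Cntnap2, a neurexin-family gene of 2245 kb, held 5 boundaries, all of them weak, between 0.210 and 0.427. Ptprd, a receptor phosphatase gene of 2271 kb, held 4, of which 1 was strong (0.702). Lrp1b, of 2058 kb, held 1 boundary, of strength 0.231. Nrxn3 held 2, with strengths of 0.424 and 1.36. Macrod2, Csmd1 and Tenm2 held 4 each, of which 1, 2 and 2 were strong, with their highest strengths at 0.811, 0.720 and 1.24. The longest genes with no boundary of the set were Csmd3 (1211 kb), Sntg1 (938 kb), Npas3 (824 kb), Hs6st3 (731 kb) and Mgat4c (710 kb). The map of boundaries along the named genes shows these positions.

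**Figure D2:**
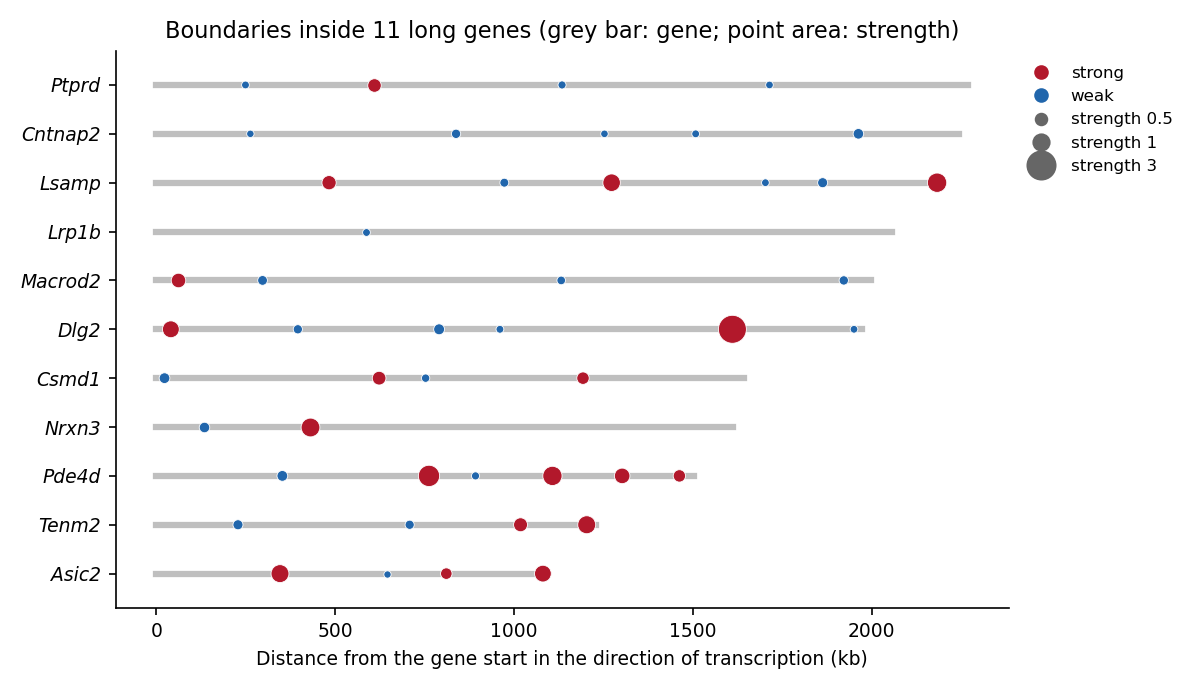
Position of each boundary along 11 long genes, in kb from the gene start in the direction of transcription (horizontal axis); the grey bar is the gene, point area is proportional to deposited strength, and colour gives the authors' class. The Dlg2 boundary of strength 3.004 at 1611 kb is the largest point, the 5 points of Cntnap2 are all weak, and Lrp1b has a single point.

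Across the 953 long genes, 566 (59.4%, 56.2 to 62.5) held at least 1 boundary of the set, counting a boundary in overlapping genes for each of them. There were 410 genes with 1 boundary, 119 with 2, 23 with 3 and 14 with 4 or more, and 387 had none. A strong boundary lay in 326 genes (34.2%). Where a gene held several, their strengths were mixed. Of 154 such genes, 84 had both strong and weak boundaries, 24 had strong ones alone and 46 had weak ones alone. Differences between genes made up 31.0% of the variance in strength of these 376 boundaries. Most of these genes held only 2 boundaries, and random grouping would also give mixed genes and some variance between genes. Neither value was compared with random grouping, so neither is read as a trait of the genes. Neighbouring boundaries in the same gene were a median of 257.5 kb apart (quartiles 175 and 395, n = 214 pairs), beside 265 kb (185 and 400) over all neighbouring autosomal boundaries. Both boundaries of such a pair must fit in the gene, which leaves out wide gaps. The widest was 1345 kb, against 3750 kb over all neighbours, so the medians are not a like comparison of spacing.

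Boundaries of the longest genes had a CTCF match less often than those of the shortest, while densities by gene length had overlapping intervals. Genes of 200 to 300 kb held 2.19 boundaries per Mb (1.90 to 2.52), those of 300 to 500 kb 2.02, those of 500 to 1000 kb 1.90, and those over 1000 kb 1.97 (1.66 to 2.31). The share that was strong went, along the same classes, from 53% (46.1 to 59.8) through 50.4% and 45.2% to 39.5% (31.9 to 47.5). The intervals of the first and last classes overlap slightly. The share with a CTCF match was 34.5% (28.3 to 41.3), 24.6%, 24.1% and 16.3% (11.2 to 23.1), and here the intervals of the first and last do not overlap. Eligible bins showed the same order, with matches in 12.1%, 9.28%, 7.69% and 6.84%, and their GC content declined from 42.7% to 39.9%. The part of base composition in the change was not tested. Without the models Gm20388 and Fgfr2, the class over 1000 kb had a match at 11.6% of 129 boundaries (7.17 to 18.3) and was strong in 35.7% (27.9 to 44.2).

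**Figure D3:**
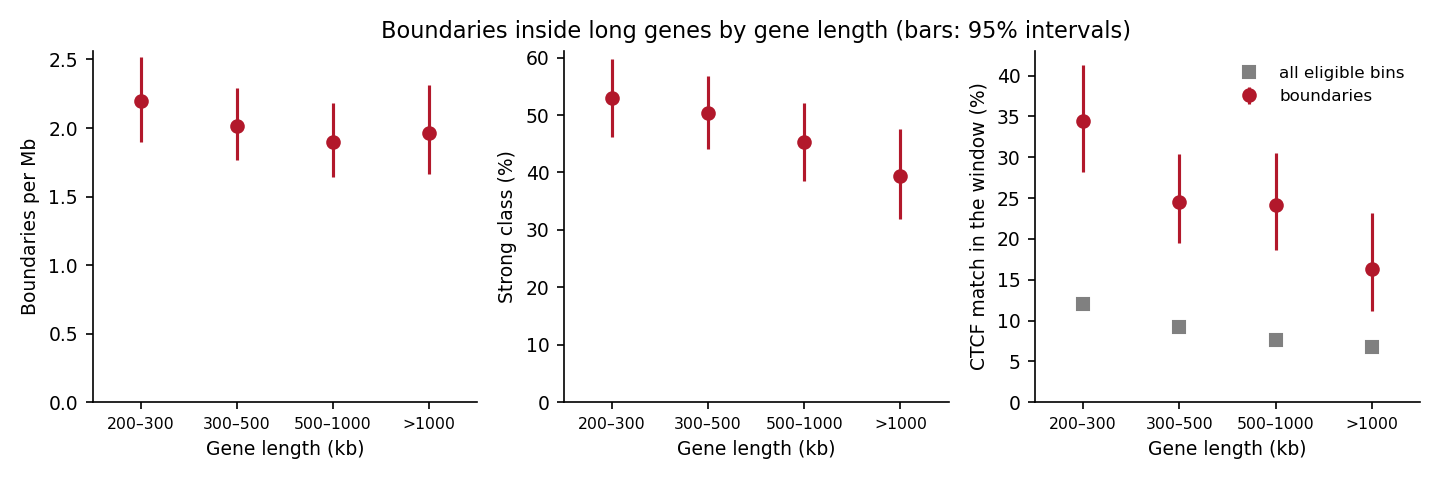
Boundaries per Mb, percent strong and percent with a CTCF match (vertical axes of the 3 panels) by gene length class (kb), with points for boundaries inside long genes, bars for 95% intervals and squares for all eligible bins. Density stays between 1.90 and 2.19 per Mb, while the strong share goes from 53% to 39.5% and the share with a match from 34.5% to 16.3%.

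Along the gene, boundaries were densest toward the 3′ end. In steps of 20% of the gene from the TSS, density was 1.73, 1.93, 2.00, 1.66 and 2.72 per Mb, the last with an interval of 2.37 to 3.11. The last 20% held 216 of the 782 boundaries, at 1.48 times the density of the rest of the gene (1.27 to 1.74). For strong boundaries alone the ratio was 1.94 (1.56 to 2.40). For genes of 500 kb or longer it was 1.11, with an interval of 0.859 to 1.43 that spans 1. Boundaries of the last step were strong in 57.4% (50.7 to 63.8), against 37.5% (30.4 to 45.2) in the middle step. The first step, with 52.1% (43.2 to 60.9), overlapped the last, so the lower shares lay in the middle of the gene. The median relative position over the set was 0.544.

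Measured in kb, the density of all boundaries inside the gene was highest in the distance class nearest the gene end. The last 25 kb of long genes held 102 boundaries, 4.51 per Mb (3.68 to 5.47), and 62.7% of them were strong. Density was 2.29 at 25 to 50 kb from the end, 1.76 at 50 to 100 kb, 1.68 at 100 to 200 kb and 1.92 farther in. Strong boundaries alone came to 1.34 per Mb (0.911 to 1.90) at 25 to 50 kb. That interval lay above the one at 100 to 200 kb, with 0.706 per Mb (0.545 to 0.900). It overlapped those at 50 to 100 kb (0.601 to 1.16) and farther in than 200 kb (0.731 to 0.989). For all boundaries the ratio of the last 25 kb to the rest was 2.42 (1.97 to 2.98), a contrast chosen after the densities were seen. On the 5′ side, where the rule empties the sequence around the TSS, the first 25 kb held 2.14 per Mb (1.39 to 3.16) and the sequence over 200 kb from the start 2.16. Across the gene end, density was 5.83 per Mb in the last 10 kb inside and 5.11 in the first 10 kb outside protein-coding genes beyond it. It then stayed high, at 5.58, 4.59 and 5.15 in the next 3 steps of 10 kb, and was 2.62 at 90 to 100 kb beyond.

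Protein-coding TSSs of other genes often lie near the 3′ ends. Of the 102 boundaries in the last 25 kb, 44 (43.1%) had a protein-coding TSS within 50 kb of the midpoint and 15 had a TSS within 25 kb. Where no protein-coding TSS lay within 50 kb of the bin, density in the last 10 kb was 4.68 per Mb (3.14 to 6.72), and the 9 steps from 10 to 100 kb inside ranged from 1.23 to 3.11. The intervals of several of these steps overlap that of the last 10 kb, and past the end the density was 5.60 (3.78 to 7.99) in the first 10 kb. The plot of density across gene ends gives both series.

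**Figure D4:**
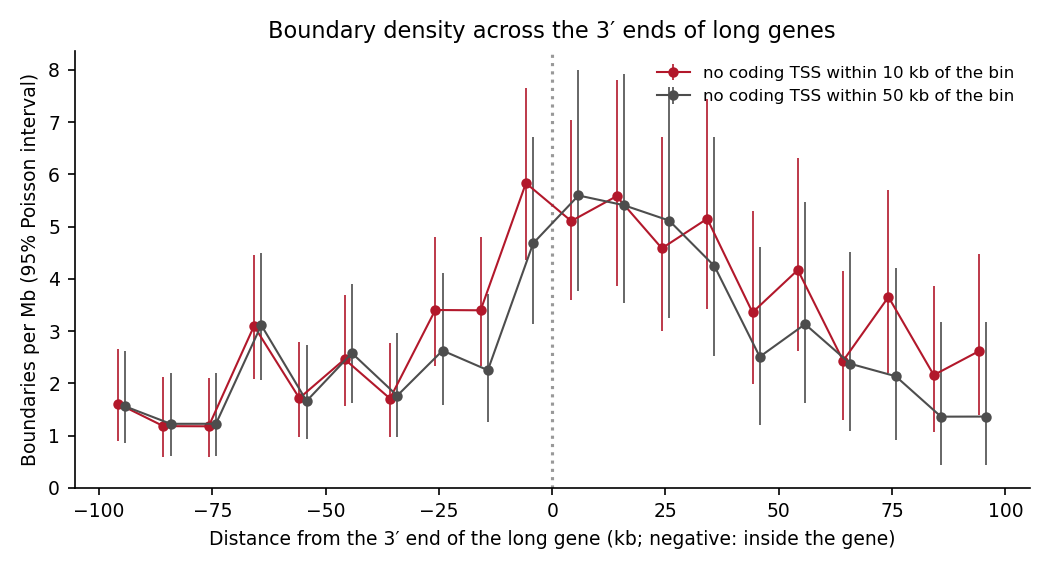
Boundaries per Mb (vertical axis, bars for 95% Poisson intervals) in steps of 10 kb from 100 kb inside to 100 kb past the 3′ ends of long genes (horizontal axis), for bins with no protein-coding TSS within 10 kb and within 50 kb; a bin near the ends of several genes counts for each. The first series is highest in the last 10 kb inside, at 5.83 per Mb, and the other in the first 10 kb past the end, at 5.60, and both stay above 4 per Mb to 40 kb past it.

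Within the gene, boundaries met exons more often than eligible bins did. A boundary interval overlapped an exon of a protein-coding gene in 254 cases (32.5%, 29.3 to 35.8), against 20.7% of eligible bins. Farther than 25 kb from the gene end the share was 27.2% (24 to 30.7) of 680 boundaries, against 18.2% of bins. Boundaries with exon overlap had a mean strength of 0.706 ± 0.466 (n = 254), those without 0.579 ± 0.396 (n = 528), a difference of 0.127 (0.0602 to 0.193). In the last 25 kb, where 62.7% of boundaries were strong, 67.6% of the 102 boundaries overlapped an exon, against 61.0% of bins. The part of position in the strength difference was not tested. The midpoint lay in an intron of the host for 750 boundaries. It fell in the longest intron for 189 of them (25.2%, 22.2 to 28.4), less than the 32.7% of eligible intronic bins. The intron at the midpoint had a median length of 50.6 kb, against 72.2 kb over bins.

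Annotated starts of further transcripts were slightly more frequent at these boundaries than in eligible sequence. A start of an annotated protein-coding transcript, other than the 5′ end of the gene model, lay in the window of 81 boundaries (10.4%, 8.41 to 12.7), against 7.34% of bins. A TSS of a long noncoding RNA lay in the window of 50 (6.39%, 4.88 to 8.33), against 4.08%. For genes of any type other than protein-coding, models of undetermined coding status included, the shares were 15.1% and 14.8%, within counting error. Strength with and without a transcript start differed by -0.00302 (interval -0.0861 to 0.0801). Boundary bins had a GC content of 42.3% against 41.3% (difference 0.969, SE 0.159), and 8.88 CpG dinucleotides per kb against 7.83.

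CTCF matches were more frequent at the boundaries of long genes than in eligible sequence and about as frequent as at other boundaries. A match lay in the widened interval of 199 boundaries (25.4%, 22.5 to 28.6), beside 24.6% of all autosomal boundaries, 9.04% of eligible windows and 11.3% of all usable autosomal windows of the same length. The ratio to eligible windows was 2.81. In shorter genes the share was 30.4% against 15.0% of their windows, and outside protein-coding genes 20.8% against 8.70%. The share in long genes differed from that in shorter genes by -4.97 points (-9.12 to -0.745). From that outside protein-coding genes it differed by 4.69 points (1.42 to 8.14), and from that at a TSS by -2.04 points (-5.56 to 1.65). The other autosomal boundaries had a match in 24.5%, and the difference of 0.914 points had an interval of -2.21 to 4.25. Of all matches in the windows, 12.4% at long-gene boundaries and 13.7% at others lay in repeat-masked sequence.

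Boundaries with a match were stronger. Their mean strength was 0.703 ± 0.394 (n = 199), against 0.592 ± 0.430 (n = 583) without, a difference of 0.111 (0.0463 to 0.176), and 61.8% against 42.9% were strong. The share with a match was 14.2% at strengths of 0.2 to 0.3, 22.6% at 0.3 to 0.5 and 35.1% at 0.5 to 1. Above that it was 29.5% at 1 to 1.5 and 27.8% (15.8 to 43.99) of the 36 boundaries from 1.5 up. Among other autosomal boundaries the last band had 35.02%, within the interval for long genes.

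The strand of the matches changed across the midpoint. Of 298 matches up to 50 kb left of it, 115 (38.6%) read forward, against 210 of 315 (66.7%) up to 50 kb right of it, a difference of 28.1 points (20.3 to 35.4). Other autosomal boundaries showed a difference of 30.4 points (27.8 to 32.9). Strong boundaries of long genes differed by 38.7 points (28.9 to 47.4), and weak ones by 11.9 points, with an interval of -0.685 to 24.1 that spans 0. With flanks of 25 kb the weak ones differed by 17.3 points (1.68 to 31.8). Over these flanks forward matches lay mainly to the right and reverse matches mainly to the left. Within 10 kb, the range in which most of the sequences shown lie, the difference was 13.3 points, with an interval of -0.0338 to 25.9 that spans 0. There the strong boundaries differed by 24.8 points (8.45 to 39.2) and the weak ones by -4.74 points (-25.4 to 16.5). Genes on the forward strand (30.7 points) and on the reverse strand (24.9 points) had overlapping intervals.

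**Figure D5:**
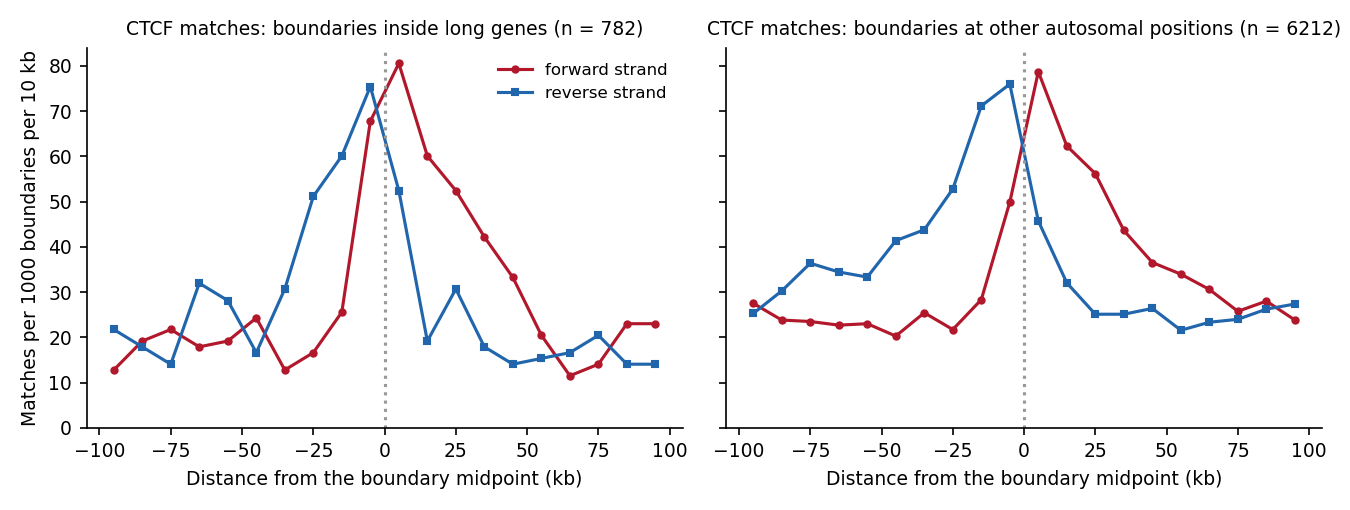
CTCF matches per 1000 boundaries in steps of 10 kb (vertical axis) by distance from the boundary midpoint (kb, horizontal axis), for the 782 boundaries inside long genes (left) and the 6212 other autosomal boundaries (right), with forward and reverse strand drawn apart. In both panels reverse matches peak left of the midpoint and forward matches right of it.

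Of the neuronal gene lists, written with earlier results of these data known, the synaptic adhesion molecules had most long genes, with a median length of 791 kb against 327 kb for all. Of 53 long adhesion genes, 44 (83.0%) held a boundary, beside 59.4% of all long genes and 83.4% of those of 500 to 1000 kb. They held 80 in all, 1.78 per Mb (1.41 to 2.22), against 2.02 over all long genes. Of the 80, 27 (33.8%, 24.3 to 44.6) were strong, against 47.6% over all long genes, counting boundaries per gene. In genes of 500 to 1000 kb 45.2% (38.5 to 52.2) were strong, and over 1000 kb 39.5% (31.9 to 47.5). Both intervals overlap that of the list, and the part of gene length in its lower share was not tested. Lsamp, Cntnap2 and Tenm2, described above, belong to this list. The 25 scaffold and vesicle genes held 31 boundaries, of which 18 (58.1%, 40.8 to 73.6) were strong. In this list Dlgap1, Erc2 and Magi2 followed Dlg2, with 2 boundaries each and highest strengths of 1.74, 1.55 and 1.05.

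The 39 long ion channel genes held 36 boundaries in 24 genes, of which 28 (77.8%, 61.9 to 88.3) were strong. Over all long genes 47.6% of boundaries were strong, and 59.4% of the genes held a boundary. Asic2, an acid-sensing channel gene, had 4, of which 3 were strong, up to 1.23. The calcium channel gene Cacna1c, the potassium channel partner Kcnip4 and the cation channel gene Trpm3 had 3 each, with 2, 3 and 2 strong. The 23 neurotransmitter receptor genes held 20 boundaries, of which 7 were strong. There the GABA receptor gene Gabrg3 had 3 and the glutamate receptor gene Grm7 had 2, all weak and at most 0.261, while Gabrb1 (0.990) and the opioid receptor gene Oprm1 (1.41) each had a strong boundary.

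Among 19 axon guidance genes, 9 held 14 boundaries, of which 7 were strong. Epha6 had 4, the highest at 1.07, Robo1 and Dcc had 2 each, and Sema3d had 1 of strength 1.31. Of 10 long genes in the olfactory sensory neuron list, 7 (70.0%, 39.7 to 89.2) held 8 boundaries in all, of which 5 (62.5%, 30.6 to 86.3) were strong. Kirrel3, an adhesion molecule of olfactory axons, had 2 strong boundaries (up to 0.679), and the transcription factor gene Nfib (1.81), the phosphodiesterase gene Pde1c (1.24) and the guidance receptor gene Robo2 (0.537) had 1 strong boundary each. Of the 9 RNA-binding protein genes, 6 (66.7%, 35.4 to 87.9) held 10 boundaries, of which 3 (30.0%, 10.8 to 60.3) were strong. Rbfox1 (1.26) and Rbms3 (0.803) were highest, and those of Rbfox3 and Celf2 were all weak.

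Both lists without a neuronal theme had similar densities. The 38 genes of common fragile sites and other widely expressed long genes held 53 boundaries, 2.30 per Mb (1.72 to 3.01), of which 17 (32.1%, 21.1 to 45.5) were strong. Macrod2 and Pard3b had 4 each, and Smyd3 had 3. The 35 genes of muscle, skeleton and other non-neural tissues held 32 boundaries, 1.95 per Mb (1.34 to 2.76). Of these, 12 (37.5%, 22.9 to 54.7) were strong, beside 47.6% over all long genes. They included the titin gene Ttn (1.47), Pkhd1 (0.793) and Ctnna3, while the 3 boundaries of Sgcd were weak. Some genes stand in 2 lists, and the lists were not tested against each other.

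At the edges of the rule, the shortest host gene was 4930402H24Rik, of 200.2 kb, with a boundary of strength 0.266. The nearest boundary left out by length lay in Atp9b, of 199.9 kb, and had a strength of 2.11. The boundary of the set nearest a TSS lay 12.5 kb from it, in Hpse2, with a strength of 0.598. The nearest left out for its TSS lay 12.3 kb away, in Cep112, with a strength of 2.35.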

How the data were processed

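Per the series design text, the authors merged the contacts of both replicates and called boundaries on the merged matrix. The deposited list gives an interval, a class and a strength, which is the authors' score. The build is GRCm38, per the submitters' processing notes. Not given in the sources used here are the boundary caller, its parameters and the aligner, and contact matrices and signal tracks were not used here.

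Boundaries were joined to GENCODE M21 gene models and to the RefSeq sequence of that build. A TSS was the 5′ end of a protein-coding gene model. A 5 kb bin was eligible when a boundary there would meet the rule and at most 50% of it was gap. CTCF matches were exact occurrences of a 12-base core on either strand in the widened interval. Shares carry Wilson intervals, their differences Newcombe intervals, densities exact Poisson intervals, and mean differences intervals from their SE. The code was tested on simulated data. Python 3.11.15, numpy 2.4.6, scipy 1.17.1, pandas 2.3.3 and matplotlib 3.10.9 were used.

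The members and the 9 gene lists were chosen with earlier results of these data known. Named genes were Dlg2, the hosts of the 10 strongest boundaries, the 10 genes with most boundaries, the 10 longest genes, up to 4 genes per list, the 5 longest genes without a boundary, the boundaries at the edges of the rule, and the 8 hosts whose sequences are shown. Some genes that meet this rule are not reported here. By symbol, 935 of the 953 long genes matched RefSeq, and 899 of those were at least 200 kb long there. Alternatives changed the gene length, the TSS window, the gene models, the motif window and the strength class.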

Additional observations from a re-analysis of the deposited data

How the results depend on the processing

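Of 66 alternatives, 54 kept direction and side of the threshold, stayed within the spread or, for counts of boundaries, within a fixed ratio of the main count. The 54 include a reversed motif pattern, a control that says nothing on how stable the CTCF share is. It matched at 0.512% of boundaries in the set and 0.483% of others, a difference of 0.0286 points (-0.345 to 0.838). The lower strong share held over all 10 alternatives (-15.0 to -5.44 points), as did the lower mean strength over its 12 (-0.182 to -0.0999). A gene length minimum of 500 kb left 346 boundaries, and strong boundaries alone were 373, at 0.961 per Mb and in 34.2% of long genes. At 50 kb or more from both gene ends the density was 1.83 per Mb. The difference in CTCF share from other boundaries had no stable sign: it was 3.25 points with a minimum of 100 kb and 2.87 with the boundary interval alone, both with intervals above 0. It turned to -4.03 with a minimum of 500 kb, -0.991 with the TSS window widened by 50 kb and -0.269 with the TSSs of every protein-coding transcript. The strand difference was 13.3 points within 10 kb, with an interval of -0.0338 to 25.9, and the density ratio of the last 20% was 1.11 in genes of 500 kb or longer. Requiring the host to reach 200 kb in RefSeq too, an alternative chosen after seeing the data (as were the distance classes in kb), left 727 boundaries at 1.99 per Mb. No paired analysis was possible because there was 1 group and the replicates were merged in 1 list, and for the same reason no replicate could be left out. Read depth, which limits how many boundaries a map can show, is unknown here.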

Other observations

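The ends of the long genes themselves were set against the full boundary list. A boundary of any kind lay at the TSS of 133 of the 953 long genes (14.0%, 11.9 to 16.3) and at the 3′ end of 132 (13.9%, 11.8 to 16.2). Genes with a boundary inside had a boundary at their TSS less often, in 59 of 566 (10.4%), than genes without, in 74 of 387 (19.1%), a difference of -8.70 points (-13.5 to -4.14). At the 3′ end the shares were 13.8% and 14.0%, a difference of -0.173 points (-4.78 to 4.20). The rule keeps a boundary at the gene's own TSS out of the set, while a boundary at its 3′ end can itself belong to it. The contrasts at the TSS and at the 3′ end are therefore not alike, and no difference between them is read here. Genes with a boundary inside were longer, with a median of 385 kb against 277 kb, and the part of length in the difference at the TSS was not tested. By chromosome, the density inside long genes ran from 1.41 per Mb (0.966 to 1.99) on chromosome 14 to 2.80 (2.06 to 3.71) on chromosome 11. These are the extremes of the autosomes, and the intervals of all the others included the 2.02 of the whole set.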
